A study of Mus musculus with 9 samples.

Results

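The insulin-like growth factor (IGF) genes described here were Igf1, Igf1r, Igfbp2, Igfbp3, Igfbp4, Igfbp5, Igfbp6 and Igfbp7, chosen by name, and they made up 8 of the 46078 gene identifiers counted. They were followed through RNA-seq of EGFP-SSCs, a mouse line of spermatogonial stem cells with WT genotype that carries green fluorescent protein, in 9 libraries. There were 3 biological replicates per time, taken at 0 h, 24 h and 48 h. At 0 h the line was in normal culture on mouse embryonic fibroblasts treated with mitomycin C, in a medium with insulin, epidermal growth factor, basic fibroblast growth factor and GDNF. At 24 h and 48 h it had been mixed with an equal share of somatic cells from busulfan-treated testes of mice 3 to 7 days after birth, in medium with knockout serum replacement, BMP-4/7, retinoic acid, activin A, testosterone, FSH and bovine pituitary extract, and EGFP-positive cells were then sorted by flow cytometry. The time in culture, the change of medium and the change of neighbouring cells came together, so their parts cannot be told apart. All libraries were of the same line, so p-values measure the spread between these samples of it. The labels name sorting for 24 h and 48 h, and the study's text describes flow sorting of SSCs from several culture stages. If the 0 h cells were not sorted, sorting too cannot be told apart from the changes against 0 h. The 9 libraries held 16825251 to 22201892 counts each.

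IGF1 is a secreted growth factor that binds the receptor tyrosine kinase IGF1R, which signals through insulin receptor substrates, phosphatidylinositol 3-kinase and AKT. The IGF-binding proteins are secreted carriers that hold IGF1 and IGF2 outside the cell, can shield the ligands from the receptor and release them when proteases cut the carrier. IGFBP7 binds IGFs weakly and is also known as a protein of the extracellular matrix. In the testis, IGF1 is known to come largely from somatic cells, and IGF1R is carried by germ cells as well as somatic cells.

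In GENCODE release M21 (GRCm38), Igf1 (ENSMUSG00000020053) lies at chr10:87858265-87937042 on the plus strand and Igf1r (ENSMUSG00000005533) at chr7:67952827-68233668 on the plus strand. Igfbp2 (ENSMUSG00000039323, chr1:72824503-72852474, plus strand) and Igfbp5 (ENSMUSG00000026185, chr1:72857932-72874884, minus strand) are neighbours, with their 3′ ends 5457 bases apart. Igfbp3 (ENSMUSG00000020427) lies at chr11:7206086-7213923 on the minus strand, and Igfbp4 (ENSMUSG00000017493) lies on the same chromosome at chr11:99041244-99054392 on the plus strand. Igfbp6 (ENSMUSG00000023046) lies at chr15:102144362-102149511 on the plus strand, and Igfbp7 (ENSMUSG00000036256) at chr5:77349240-77408041 on the minus strand. The exons of Igfbp7 share 85 bases with those of Polr2b, a subunit of RNA polymerase II on the opposite strand, and whether the counting used strand is not given in the sources used here.

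The promoters of Igfbp7, Igfbp3 and Igfbp5 are shown because these were the binding protein genes with the largest changes, Igfbp7 and Igfbp3 upward and Igfbp5 downward. Each is the stretch of 250 bases before the start of the gene in RefSeq on GRCm38.p6, written in the direction of the gene, with matches to GGGCGG (the core of the GC box bound by Sp1) on either strand in capitals.
Igfbp7 (chr5:77408046-77408295, minus strand): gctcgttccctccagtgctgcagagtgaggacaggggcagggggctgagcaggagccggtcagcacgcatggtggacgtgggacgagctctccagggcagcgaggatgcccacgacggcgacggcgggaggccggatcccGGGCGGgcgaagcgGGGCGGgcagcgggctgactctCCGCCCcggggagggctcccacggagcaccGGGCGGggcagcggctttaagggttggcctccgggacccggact
Igfbp3 (chr11:7213924-7214173, minus strand): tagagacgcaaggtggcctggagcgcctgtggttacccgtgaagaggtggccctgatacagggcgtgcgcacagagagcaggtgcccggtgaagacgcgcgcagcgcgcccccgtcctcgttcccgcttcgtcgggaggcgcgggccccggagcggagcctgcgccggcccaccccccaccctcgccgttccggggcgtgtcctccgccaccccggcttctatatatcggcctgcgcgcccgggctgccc
Igfbp5 (chr1:72874866-72875115, minus strand): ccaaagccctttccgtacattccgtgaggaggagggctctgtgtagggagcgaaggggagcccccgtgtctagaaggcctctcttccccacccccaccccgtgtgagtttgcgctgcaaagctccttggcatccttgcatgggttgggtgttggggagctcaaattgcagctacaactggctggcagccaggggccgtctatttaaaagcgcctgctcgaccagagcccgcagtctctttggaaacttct
The Igfbp7 promoter held 4 matches to GGGCGG, which began 110, 96, 74 and 44 bases before the start, and 74.0% of its bases were G or C. The Igfbp3 promoter was as rich in G and C, at 73.2%, and held no GGGCGG, and the Igfbp5 promoter, at 58.8%, held none either. GGGCGG was present in 32.7% of all 32851 promoters of this length. TATAAA (an exact form of the TATA box), AGGTCA (the short site bound by retinoic acid receptors) and CAGAC (a short form of the element bound by SMAD proteins), searched on both strands with overlaps allowed, were found in none of these 3 promoters. They were found in 12.4%, 14.0% and 42.2% of all promoters. Only exact matches were counted, so other forms of the TATA box were not searched. Related strings are present, such as tatatat before Igfbp3 and tatttaaaag before Igfbp5. AGGTCA was found before Igf1 and Igf1r, and direct repeats of it were found before none of the 8 genes.

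Across the first day, 2 of the 8 genes rose (Igfbp3 and Igfbp7), 1 fell (Igf1r) and 5 did not pass the test. A gene was called changed at an adjusted p of up to 0.05 by edgeR's quasi-likelihood test (two-sided) on the 6 libraries of the 2 groups, with Benjamini-Hochberg adjustment over all genes tested. Of the 17592 genes tested between 24 h and 0 h, 11.4% rose, 14.2% fell and 25.5% changed in either direction. Between 48 h and 0 h, 3 of the 8 rose (Igf1, Igfbp3 and Igfbp7) and 2 fell (Igf1r and Igfbp5), where 13.0% of all 17755 genes tested rose, 18.5% fell and 31.6% changed. From 24 h to 48 h, 2 rose (Igfbp3 and Igfbp7) and 2 fell (Igfbp2 and Igfbp5), where 8.61% of all 17499 genes tested rose, 12.7% fell and 21.3% changed. All 8 genes passed the expression filter in each comparison. The median log2 fold change of the 8 genes was 0.45, 0.06 and 0.07 in these 3 comparisons in the same order, and that of all genes tested was 0.01, 0.02 and -0.0. The 3 comparisons share libraries, so their values are not independent. In bulk RNA such as this, fewer cells of a type and less RNA of a gene per cell cannot be told apart.

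Scaling by library size alone, in place of TMM, moved the median log2 fold change over all genes up by 0.11, at 24 h as at 48 h against 0 h. With it, 57.1% of the calls at 24 h were rises instead of 44.5%, and 52.8% of those at 48 h instead of 41.2%. The calls of the 8 genes were the same under both scalings.

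The 0 h libraries differed along GC content, the share of G and C bases of a gene. Between 0 h replicates 3 and 1, the median difference in log2 CPM (counts per 1000000, normalized by TMM over the 9 libraries) ran from -0.88 in the fifth of genes with the lowest GC content to 0.48 in the fifth with the highest. Igf1, at 38.0% GC, differed by -1.58 between them, and Igfbp2, at 62.1% GC, by 1.03. Igf1r, Igfbp3 and Igfbp6, at 49.4%, 52.5% and 60.7% GC, differed by 0.03, -0.05 and 0.01. Igfbp4, Igfbp5 and Igfbp7, at 55.1%, 50.3% and 58.8% GC, differed by 0.62, 0.55 and 0.46. When the fit took offsets for GC and length, Igf1 passed the test at 24 h (log2 fold change 1.40, edgeR adjusted p = 0.0136), and the other calls of the 8 genes were those of the fit without offsets.

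**Figure D1:**
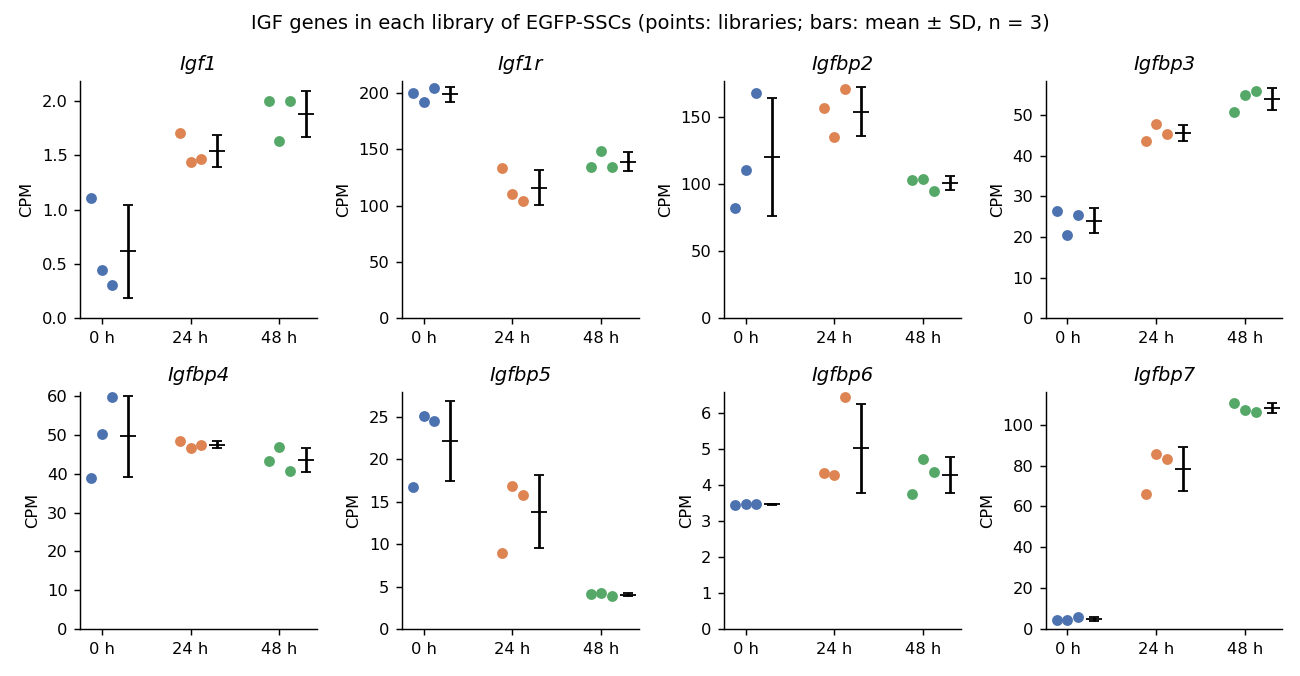
Level of each gene in CPM (TMM-normalized, each panel with its own axis from 0) in the libraries of 0 h, 24 h and 48 h. Points are libraries, and the bars beside them are the mean ± SD (n = 3). Igfbp7 rose from 4.93 to 78.4 and 108 CPM, Igfbp5 fell to 4.05 CPM, and the 0 h libraries of Igf1, Igfbp2 and Igfbp4 were spread widely.

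Igf1, the ligand, was barely expressed in these cells. Its level was 1.11, 0.445 and 0.302 CPM in replicates 1, 2 and 3 of 0 h, 1.71, 1.44 and 1.46 at 24 h, and 2.00, 1.63 and 2.00 at 48 h. These values rest on 18, 9 and 6 counts at 0 h and on 27 to 40 counts in each later library. All 6 later libraries lay above the 3 of 0 h, and the 24 h and 48 h libraries overlapped. Its log2 fold change at 24 h, 1.33 ± 0.49 (SE), did not pass the test (edgeR adjusted p = 0.087), whereas that at 48 h, 1.62 ± 0.48, passed it narrowly (edgeR adjusted p = 0.0388). From 24 h to 48 h it was 0.29 ± 0.24 (edgeR adjusted p = 0.41).

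The calls of Igf1 rested on single libraries. Without 0 h replicate 1, the highest of its group, the change at 24 h was 2.03 (edgeR adjusted p = 0.00891, with 0.00891 to 0.23 over the libraries left out in turn and 0.0136 to 0.0978 over the other settings). The 48 h call was lost when any library other than 0 h replicate 1 was left out, with log2 fold changes of 1.32 to 2.32 and edgeR adjusted p of 0.00373 to 0.125 over the 6 libraries left out in turn. The low counts of Igf1 limit how well its change can be sized.

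Igf1r, the receptor gene, was the opposite in level and direction. Its level was 199.9, 191.6 and 204.5 CPM at 0 h, 133, 111 and 104 CPM at 24 h, and 134, 149 and 134 CPM at 48 h. Every library of co-culture lay below every library of 0 h, and the lowest level was reached at 24 h. It fell by 0.78 ± 0.12 (SE) on the log2 scale at 24 h (edgeR adjusted p = 0.00325) and by 0.51 ± 0.10 at 48 h (edgeR adjusted p = 0.00613), and both calls held with each library left out. The partial return from 24 h to 48 h, 0.27 ± 0.09, narrowly missed the threshold (edgeR adjusted p = 0.0524). Without 24 h replicate 1 it was 0.37 (edgeR adjusted p = 0.0191, with 0.0191 to 0.14 over the libraries left out in turn), and with DESeq2 it was 0.29 and also passed (adjusted p = 0.016 to 0.216 over the settings of edgeR and DESeq2 that kept all libraries).

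Igfbp7 had the largest change among the 8 genes. It was at 4.303, 4.548 and 5.940 CPM at 0 h, at 66.0, 85.8 and 83.4 CPM at 24 h, and at 111, 107 and 106 CPM at 48 h. The 3 groups did not overlap, and the 3 libraries of 48 h lay close together. Its log2 fold change reached 3.99 ± 0.18 (SE) by 24 h, a 15.9-fold rise (edgeR adjusted p = 1.96e-05), and 4.46 ± 0.15 by 48 h, a 22-fold rise (edgeR adjusted p = 6.39e-06). A smaller further rise of 0.47 ± 0.10 followed between 24 h and 48 h (edgeR adjusted p = 0.0125), which was lost with all 9 libraries in 1 fit (edgeR adjusted p = 0.0742). Of 46 windows of 75 bases of its longest transcript, 1 matched another gene (Polr2b).

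Igfbp3, whose protein is the main IGF carrier of the circulation, rose less than Igfbp7 but with as little overlap. Its level was 26.3, 20.5 and 25.3 CPM at 0 h, 43.6, 47.7 and 45.4 CPM at 24 h, and 50.9, 54.8 and 56.0 CPM at 48 h, and no library of one group lay within another. It rose by 0.92 ± 0.14 on the log2 scale at 24 h (edgeR adjusted p = 0.0025) and by 1.17 ± 0.13 at 48 h (edgeR adjusted p = 0.000678). Both rises kept their call with each library left out. The step from 24 h to 48 h, 0.25 ± 0.07 (edgeR adjusted p = 0.0429), lost its call with any 1 of the 6 libraries left out, where it was 0.20 to 0.30 (edgeR adjusted p = 0.0516 to 0.159).

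Igfbp5, a carrier that also binds matrix and bone mineral, was the binding protein gene that fell most. Its level was 16.7, 25.1 and 24.6 CPM at 0 h, 8.95, 16.9 and 15.7 CPM at 24 h, and 4.10, 4.19 and 3.85 CPM at 48 h. At 24 h, 1 library (16.9 CPM) was above the lowest of 0 h (16.7 CPM), whereas all 48 h libraries were below every other. The change at 24 h, -0.67 ± 0.26, did not pass the test (edgeR adjusted p = 0.107). Without 0 h replicate 1 it was -0.83 (edgeR adjusted p = 0.0451, with 0.0451 to 0.272 over the libraries left out in turn), and with 24 h replicate 1 left out it was -0.44. From 24 h to 48 h Igfbp5 fell by 1.77 ± 0.23 (edgeR adjusted p = 0.00137), and over both days it fell by 2.44 ± 0.19 (edgeR adjusted p = 0.000114), and both calls held with each library left out.

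Its neighbour Igfbp2, a carrier abundant in embryonic and fetal tissues, fell late. It was at 81.9, 111 and 168 CPM at 0 h, at 156, 134 and 170.2 CPM at 24 h, and at 103, 104 and 94.4 CPM at 48 h. The libraries of 0 h were spread widely and overlapped with those of both other groups, while 24 h and 48 h did not overlap. Igfbp2 fell by 0.61 ± 0.09 on the log2 scale from 24 h to 48 h (edgeR adjusted p = 0.00189), a call that was lost with all 9 libraries in 1 fit (edgeR adjusted p = 0.139). The changes against 0 h, 0.36 ± 0.24 at 24 h (edgeR adjusted p = 0.327) and -0.25 ± 0.23 at 48 h (edgeR adjusted p = 0.468), did not pass. Without 0 h replicate 3, which held the highest level of that group, they were 0.69 (edgeR adjusted p = 0.0117, with 0.0117 to 0.583 over the libraries left out in turn) and 0.08.

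Igfbp4 and Igfbp6 passed the test in no comparison. Igfbp4, a carrier whose cleavage by the protease PAPP-A releases IGF, was at 39.0, 50.3 and 59.8 CPM at 0 h, at 46.6 to 48.5 CPM at 24 h and at 40.7 to 46.9 CPM at 48 h. The 0 h libraries took in all those of 24 h and 48 h, and its log2 fold changes were -0.06 ± 0.15, -0.18 ± 0.16 and -0.12 ± 0.07 in the 3 comparisons. Its first value was 0.11 without 0 h replicate 3, so its direction is not settled. Igfbp6, a carrier with a preference for IGF2, was at 3.44, 3.46 and 3.47 CPM at 0 h, at 4.32, 4.27 and 6.43 CPM at 24 h, and at 3.74, 4.72 and 4.35 CPM at 48 h. Every later library lay above those of 0 h. The log2 fold changes, 0.53 ± 0.23 at 24 h (edgeR adjusted p = 0.136) and 0.31 ± 0.19 at 48 h (edgeR adjusted p = 0.263), did not pass. From 24 h to 48 h it was -0.22 ± 0.20, and 0.02 without 24 h replicate 3.

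**Figure D2:**
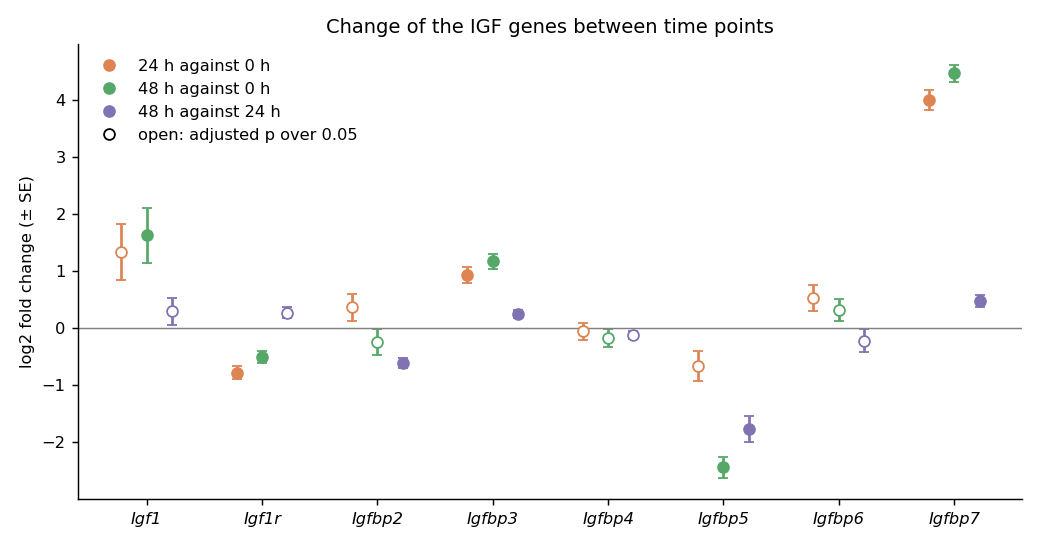
Log2 fold change of each gene in the 3 comparisons, with bars of ± 1 standard error from the edgeR fit and open circles where the adjusted p was over 0.05. Igfbp7 stands at 3.99 and 4.46 against 0 h, Igfbp5 at -2.44 at 48 h, and Igfbp4 lies near 0 in all 3.

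Levels of different genes were set side by side per length, as FPKM, the TMM-normalized CPM of a gene divided by its length in kilobases (the union of its exons). At 0 h the order was Igfbp2 (65.0), Igf1r (11.8), Igfbp4 (11.2), Igfbp3 (7.68), Igfbp7 (4.08), Igfbp5 (3.69), Igfbp6 (3.11) and Igf1 (0.0624), as group means of FPKM. The libraries of Igf1r and Igfbp4 overlapped, as did those of Igfbp7 with Igfbp5 and of Igfbp5 with Igfbp6, and the other neighbours did not. At 24 h Igfbp7 (64.9 FPKM) had moved up to second place behind Igfbp2 (83.2), followed by Igfbp3 (14.6), Igfbp4 (10.7), Igf1r (6.90), Igfbp6 (4.50), Igfbp5 (2.31) and Igf1 (0.155). At 48 h Igfbp7 (89.5 FPKM) stood first and Igfbp2 (54.3) second, the order of the next 3 was the same as at 24 h, and Igfbp6 (3.84), Igfbp5 (0.674) and Igf1 (0.190) closed it. No neighbours in the order overlapped at 24 h or 48 h with this length. With the longest transcript as length, Igf1r (11.7 to 13.0 FPKM) stood above Igfbp4 (10.6 to 12.3 FPKM) at 48 h and the libraries of the 2 genes overlapped. At 0 h, that length separated Igf1r (16.8 to 17.9 FPKM) from Igfbp4 (10.2 to 15.6 FPKM), and Igfbp4 overlapped with Igfbp3 (8.47 to 10.9 FPKM).

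The make-up of the binding protein transcripts changed with these moves. Of the summed FPKM of Igfbp2 to Igfbp7, Igfbp2 at 0 h took 67.6% ± 5.22 (SD, n = 3), and its share was 46.2% ± 4.43 by 24 h and 30.9% ± 0.885 by 48 h. Igfbp7 took 4.40% ± 0.55, 36.0% ± 4.07 and 51.0% ± 0.976 at the same times, and the libraries of its 3 groups did not overlap. Igfbp4 went from 12% ± 1.03 to 5.63% ± 0.305 and Igfbp5 from 3.97% ± 0.711 to 0.384% ± 0.00821 between 0 h and 48 h, while Igfbp3 took 8.57% ± 2.86 and 9.83% ± 0.661. The sum itself was 71.0, 88.9 and 124 FPKM in the libraries of 0 h, 170.0, 176 and 195 FPKM at 24 h, and 178, 178 and 171 FPKM at 48 h. It was higher in every library of co-culture than in any of 0 h, and the 24 h and 48 h libraries overlapped. The ratio of Igfbp2 to Igfbp7 in FPKM was 15.6 ± 3.01 at 0 h, 1.30 ± 0.265 at 24 h and 0.607 ± 0.0253 at 48 h. Because these shares sum to a whole, a larger share of Igfbp7 lowers the others, and the changes of each gene above are the ones that were tested.

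**Figure D3:**
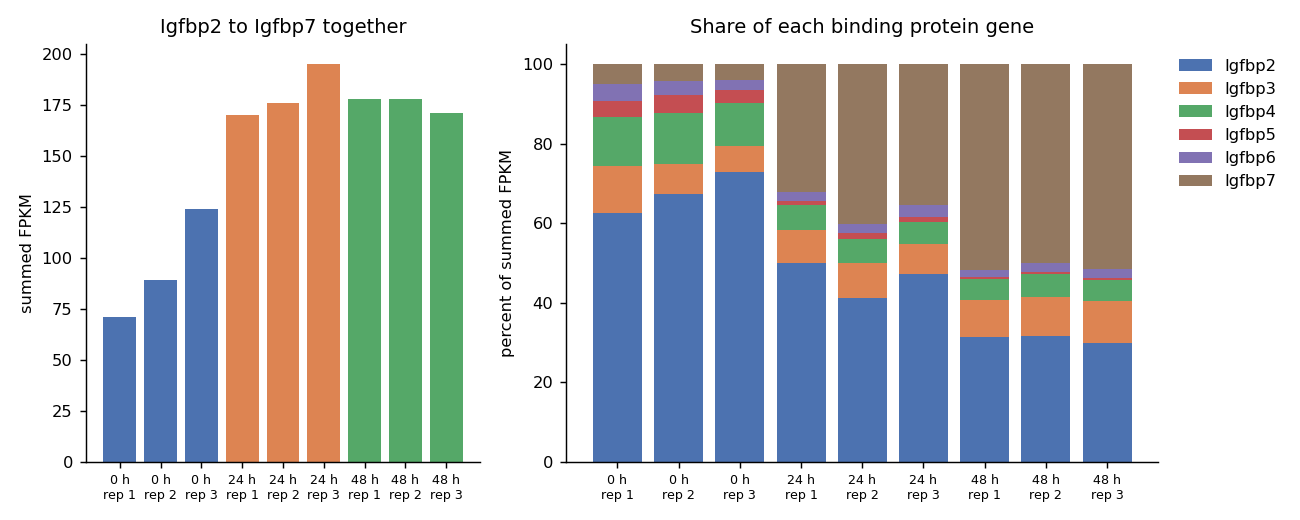
Left, the summed FPKM of Igfbp2 to Igfbp7 in each library, on an axis from 0; right, the percent of that sum taken by each of the 6 genes in each library (rep, replicate). The part of Igfbp7 grows from 4.40% at 0 h to 51.0% at 48 h as group means, while that of Igfbp2 shrinks from 67.6% to 30.9%.

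The cell type of the libraries was checked with marker lists. The 7 germ cell markers, among them Dazl and Ddx4, summed to 1510 to 2734 CPM at 0 h, 1958 to 2188 CPM at 24 h and 2102 to 2414 CPM at 48 h. The 6 markers of undifferentiated spermatogonia, among them Etv5 and Zbtb16, summed to 1418 to 1698 CPM at 0 h and to 255.8 to 298.8 CPM at 48 h.

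The summed markers of stroma, myoid, Sertoli and Leydig cells were higher at 24 h and 48 h than at 0 h. So were Igfbp7 and Igfbp3, whereas Igf1r and the endothelial and macrophage sums were lower. The 9 markers of fibroblasts and stroma summed to 285.5 to 393 CPM at 0 h, 2260.0 to 2563 CPM at 24 h and 3037 to 3280.0 CPM at 48 h. Of these, 6 rose at 24 h and 7 at 48 h, where 11.4% and 13.0% of all genes tested rose. Col1a1, the most abundant, went from 157 ± 27.9 (SD, n = 3) at 0 h to 1394 ± 93.5 CPM at 48 h. The 8 markers of peritubular myoid cells, the contractile cells around the seminiferous tubule, summed to 39.8 to 48.2 CPM at 0 h and to 353.9 to 407 CPM at 48 h, and 7 of them rose. Acta2, smooth muscle actin, was at 1.98 ± 0.58, 98.5 ± 15.1 and 166 ± 19.4 CPM at the 3 times, and Actg2 was at the floor of 3 counts or fewer in every library of 0 h.

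The 10 Sertoli cell markers summed to 22.3 to 25.4 CPM at 0 h and to 124 to 133 CPM at 48 h, with 8 of the 9 tested higher at each time and 1 (Sox9) lower at 24 h. For this and the following lists, the shares over all genes tested were 11.4% higher and 14.2% lower at 24 h. At 48 h they were 13.0% higher and 18.5% lower. Fshr, the receptor for FSH that defines Sertoli cells, was at the floor at all 3 times, and Dhh was at the floor at 0 h. The 6 Leydig cell markers summed to 4.53 to 6.77 CPM at 0 h, 25.2 to 38.5 CPM at 24 h and 25.6 to 31.9 CPM at 48 h, with Lhcgr at the floor throughout and Hsd3b1 and Insl3 at the floor at 0 h. The 7 endothelial markers summed to 173 to 184 CPM at 0 h and to 30.3 to 31.8 CPM at 48 h, and Emcn was at the floor at both these times. Of the 6 tested, 4 fell and 1 rose at each time against 0 h. Flt1, the most abundant at 0 h, went from 104.6 ± 7.33 to 8.795 ± 1.26 CPM at 48 h. The 8 macrophage markers summed to 15.4 to 17.6 CPM at 0 h and to 6.30 to 9.11 CPM at 48 h, and C1qa, C1qc and Cx3cr1 were at the floor at all 3 times. Most of this sum was Cd68, at 15.6 CPM at 0 h and 5.42 CPM at 48 h. Of the 3 tested, 1 rose and 1 fell at 24 h, and 1 fell and 0 rose at 48 h. Their median log2 fold change at 48 h was 1.17, so the fall of the sum does not describe the whole list. The part of RNA from somatic or feeder cells in the changes of the 8 genes was not tested.

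**Figure D4:**
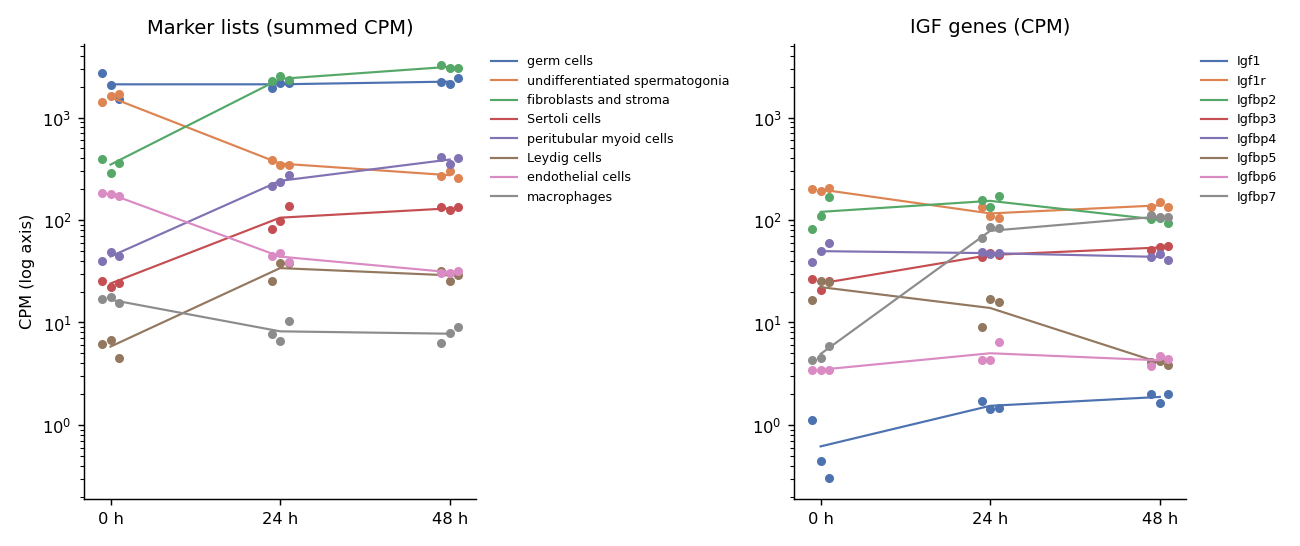
Left, the summed CPM of each marker list by time; right, the CPM of the 8 genes; both on log axes, with libraries as points and group means joined by lines. The lists of stroma, myoid, Sertoli and Leydig cells lie higher at 24 h and 48 h than at 0 h, as does Igfbp7, while the germ cell list stays between 1510 and 2734 CPM.

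The likeness of other genes to the IGF genes was measured as Pearson's r of log2 CPM over the 9 libraries, among 10965 genes with at least 10 CPM in 1 group. This describes 9 points in 3 groups of shared culture, so any gene that steps at the same times scores high. The genes most like Igfbp7 were Acta2 (r = 0.9985), Col3a1, a fibrillar collagen (r = 0.9973), and Col6a1, a collagen of the pericellular matrix (r = 0.9972). Acta2 and Col3a1 belong to the marker lists of myoid cells and stroma above. Igfbp3 was most like Scarf2 (r = 0.9905), Dusp8 (r = 0.9905), a phosphatase of MAP kinases, and Lhx8 (r = 0.9901), a LIM homeobox factor, which went from 1.22 to 27.4 CPM between 0 h and 48 h. Among the IGF genes themselves, Igfbp3 and Igfbp7 were the pair most alike (r = 0.977), and Igf1r ran against both (r = -0.802 with Igfbp3 and -0.873 with Igfbp7).

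Igf1r was most like Kpnb1, the nuclear import receptor importin beta (r = 0.9824), Ctif (r = 0.977) and Txnip, which encodes an inhibitor of thioredoxin (r = 0.9769). Txnip was at 258, 134 and 166 CPM at 0 h, 24 h and 48 h. Igfbp5 was most like Lck, a SRC family kinase (r = 0.9839), Slc25a51, a mitochondrial carrier (r = 0.9762), and Ndrg2 (r = 0.9731). Igfbp2 was most like Ndn, which encodes necdin (r = 0.9783), Tsen34, a subunit of the tRNA splicing endonuclease (r = 0.9765), and Qsox1, a sulfhydryl oxidase (r = 0.9647). Igfbp4 was most like Hmga1b (r = 0.9902), a near-identical copy of Hmga1 whose counts are therefore uncertain, Arrb2, a beta-arrestin (r = 0.9838), and Mapkapk2, a kinase below p38 (r = 0.9796). Igfbp2 and Igfbp4 were themselves alike (r = 0.762), with 0 h replicate 3 the highest and 0 h replicate 1 the lowest of 0 h for both. These replicates differed along GC content, as described above, and r takes in this spread as well as any step between times. The part of that spread in these values was not tested. Igf1 and Igfbp6 were under 10 CPM in every group and were not compared in this way.

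Of the 6 other ligand and receptor genes, 4 were tested. Igf2, the fetal ligand, was at 85.5, 105 and 106 CPM at 0 h, at 41.9, 42.9 and 41.9 CPM at 24 h, and at 28.2, 27.0 and 28.2 CPM at 48 h. The groups did not overlap, and Igf2 fell by 1.22 ± 0.12 on the log2 scale at 24 h (edgeR adjusted p = 0.00033) and by 1.82 ± 0.12 at 48 h (edgeR adjusted p = 5.6e-05). Per length it exceeded Igf1 at all times, with a ratio of FPKM of 134 to 606 in the libraries of 0 h, 42.4 to 51.6 at 24 h and 24.4 to 28.6 at 48 h. Insr, the insulin receptor, went from 25.6 ± 4.33 to 16.8 ± 0.50 CPM by 48 h (log2 fold change -0.60, edgeR adjusted p = 0.0251), a call that was lost when 0 h replicate 2 or any library of 48 h was left out (edgeR adjusted p = 0.00483 to 0.093 over all 6). Igf2r, the receptor that takes up and degrades IGF2, was at 272 ± 18.2, 239 ± 17.9 and 257 ± 22.5 CPM and passed in no comparison, and neither did Insrr. Ins1 and Ins2 had 1 count at most in any library.

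Per length, Igf1r exceeded Insr by 6.50 ± 1.27 times at 0 h, 4.76 ± 0.998 times at 24 h and 6.77 ± 0.588 times at 48 h. Igf2r exceeded Igf1r by 2.48 ± 0.246, 3.75 ± 0.318 and 3.34 ± 0.13 times. Of the 3 other binding protein genes, Igfbp1, the neighbour of Igfbp3, had 1 count at most in any library and Igfals 6 at most, so neither was tested. Igfbpl1, an IGFBP-like gene, was at 36.1 ± 10.5, 22.5 ± 0.486 and 16.9 ± 2.54 CPM and fell by 1.09 ± 0.22 over both days (edgeR adjusted p = 0.00838). Its calls at 24 h (log2 fold change -0.68, edgeR adjusted p = 0.0403) and between 24 h and 48 h (-0.41, edgeR adjusted p = 0.0286) were lost when most single libraries were left out.

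Proteases taken to cut binding proteins, and inhibitors of such proteases, were listed as 12 genes. Whether each listed protease, Prss23 among them, cuts a binding protein was not examined here. At 24 h against 0 h, 8 of the 12 genes were tested, and 4 rose and 1 fell, where 25.5% of all genes tested changed. At 48 h against 0 h, 9 were tested, and 5 rose and 3 fell, where 31.6% of all genes changed. Between 24 h and 48 h, 3 of the 9 tested rose and 2 fell, where 21.3% of all genes changed. The median log2 fold changes of those tested were 0.96, 1.81 and -0.24 in these comparisons, against 0.01, 0.02 and -0.0 for all genes. The medians are not over the same members, since Pappa2, a relative of Pappa, was not tested at 24 h and passed the filter later, at 0.224 CPM at 0 h and 1.39 CPM at 48 h. Which list changed more was not tested. Pappa, which encodes PAPP-A, the protease that cuts IGFBP4 and IGFBP5, was at 0.922, 0.396 and 0.403 CPM at 0 h, at 7.49, 9.12 and 7.75 CPM at 24 h, and at 18.1, 12.1 and 16.9 CPM at 48 h. The groups did not overlap, and Pappa rose by 3.84 ± 0.35 on the log2 scale in the first day (edgeR adjusted p = 0.000301) and by 4.80 ± 0.37 over both (edgeR adjusted p = 0.00011). Stc2, which encodes an inhibitor of PAPP-A, fell from 20.5, 23.7 and 21.6 CPM at 0 h to 8.998, 9.121 and 12.19 CPM at 24 h and to 3.79, 3.66 and 4.05 CPM at 48 h. Its log2 fold change was -1.12 ± 0.16 (edgeR adjusted p = 0.00231) and -2.51 ± 0.14 (edgeR adjusted p = 2.84e-05), and all 3 groups stood apart.

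Of the other proteases, Prss23 rose from 1.93 ± 0.195 to 17.0 ± 0.234 and 23.1 ± 2.62 CPM, or by 3.13 and 3.58 on the log2 scale (edgeR adjusted p = 2.98e-05 and 1.85e-05). Htra1, a secreted serine protease, rose from 4.51 ± 1.52 to 31.8 ± 7.31 and 24.7 ± 2.77 CPM, and Adam12, a metalloprotease gene with a product that cuts IGFBP3 and IGFBP5, from 4.43 ± 0.607 to 18.3 ± 2.23 and 15.5 ± 1.43 CPM. Htra3 fell by 48 h, from 13.1 ± 3.10 to 7.68 ± 0.218 CPM (log2 fold change -0.76, edgeR adjusted p = 0.02), a call lost when any library of 48 h was left out (edgeR adjusted p = 0.0086 to 0.0833 over all 6). The stroma and myoid sums were higher at 24 h and 48 h than at 0 h, as were Pappa, Prss23, Htra1 and Adam12. From 24 h to 48 h these sums rose further, as did Igfbp7, Pappa and Prss23. Htra1 and Adam12 did not, with log2 fold changes of -0.36 ± 0.16 and -0.24 ± 0.12 (edgeR adjusted p = 0.15 and 0.197). The part of somatic cells in these changes was not tested.

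Below the receptor, all 21 listed signalling genes were tested. Against 0 h, 2 rose and 4 fell at 24 h, where 25.5% of all genes tested changed, and 4 rose and 5 fell at 48 h, where 31.6% changed. Between 24 h and 48 h, 3 rose and 2 fell, where 21.3% changed. The first of these shares is close to that over all genes, so the counts say little about the list. The median log2 fold changes of these genes were -0.21, -0.15 and 0.05. Irs2, an adaptor that docks to IGF1R and the insulin receptor, had the largest fall among them, from 44.5, 49.4 and 47.8 CPM at 0 h to 15.6, 15.6 and 13.2 CPM at 24 h and 10.7, 12.3 and 12.4 CPM at 48 h. Its log2 fold change was -1.67 ± 0.12 (edgeR adjusted p = 0.000107) and -2.0 ± 0.11 (edgeR adjusted p = 3.02e-05). Irs1 did not pass, with log2 fold changes of -0.38 ± 0.29 and -0.18 ± 0.27. Akt1, a kinase of the pathway, rose from 92.8 ± 20.5 to 178 ± 6.60 and 160 ± 10.6 CPM (log2 fold change 0.94 and 0.79, edgeR adjusted p = 0.00396 and 0.00816).

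Grb10, an adaptor that inhibits the insulin and IGF1 receptors, rose late, from 42.8 ± 1.56 and 55.1 ± 4.94 to 90.6 ± 3.67 CPM, with a log2 fold change of 1.09 ± 0.11 at 48 h (edgeR adjusted p = 0.000323) and 0.72 ± 0.09 between 24 h and 48 h (edgeR adjusted p = 0.000955). Inppl1, which encodes the lipid phosphatase SHIP2, fell by 1.06 ± 0.14 on the log2 scale by 48 h (edgeR adjusted p = 0.00128). Pik3r1 passed in no comparison. At 48 h Gab1, Grb2, Akt2 and Pik3r3 passed, at -0.35, -0.49, -0.51 and 0.66 on the log2 scale and edgeR adjusted p of 0.0483, 0.0492, 0.0381 and 0.0496, and each call was lost with several single libraries left out. Pik3ca, the catalytic subunit p110 alpha, passed at 24 h (log2 fold change -0.99, edgeR adjusted p = 0.0218) and not at 48 h (-0.62, edgeR adjusted p = 0.108), and its 24 h call was lost when 0 h replicate 2 or any library of 24 h was left out (edgeR adjusted p = 0.000475 to 0.0858 over all 6). Pik3cb, p110 beta, passed from 24 h to 48 h alone (log2 fold change 0.34, edgeR adjusted p = 0.00992).

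All 3 genes for the IGF2 mRNA-binding proteins, which bind and regulate transcripts including that of Igf2, fell by 24 h and did not pass between 24 h and 48 h. Of all genes tested, 14.2% fell at 24 h and 18.5% at 48 h against 0 h, and 21.3% changed between 24 h and 48 h. Igf2bp1 was at 504.9, 574 and 597 CPM at 0 h, at 208, 208 and 184 CPM at 24 h, and at 205, 221 and 196 CPM at 48 h, so that all later libraries lay far below 0 h. The gene fell by 1.48 ± 0.11 on the log2 scale at 24 h (edgeR adjusted p = 0.00012) and by 1.42 ± 0.10 at 48 h (edgeR adjusted p = 8.93e-05). Igf2bp2 and Igf2bp3 fell by 1.34 ± 0.12 and 0.81 ± 0.14 on the log2 scale at 48 h (edgeR adjusted p = 0.000208 and 0.00469).

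**Figure D5:**
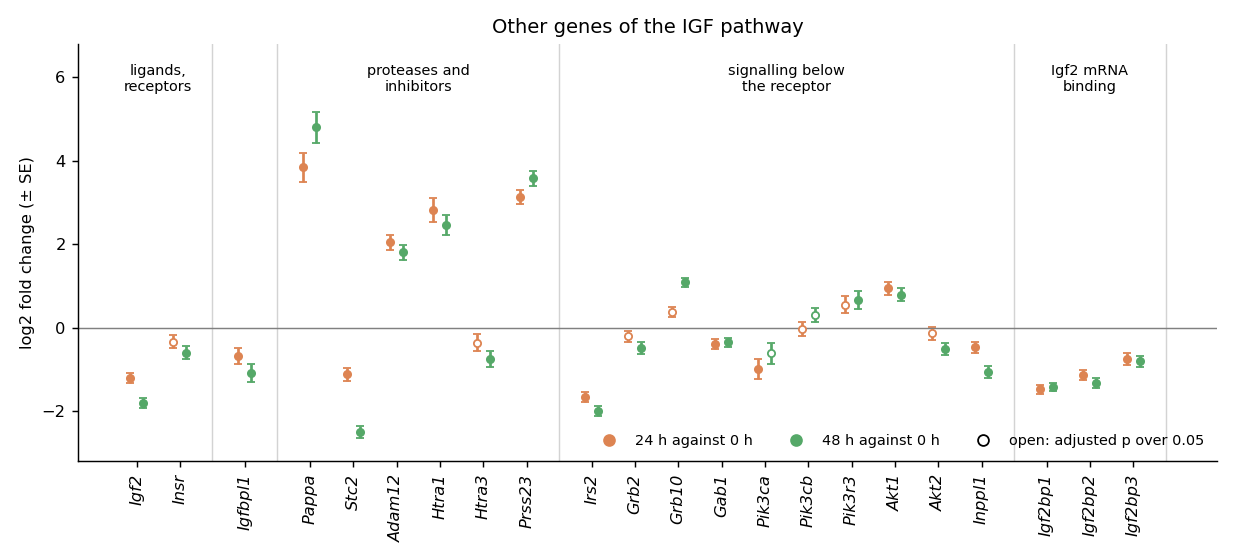
Log2 fold change against 0 h, with bars of ± 1 standard error, of the other pathway genes that were called in at least 1 comparison and reached 10 CPM in 1 group. They are grouped by role, with Igfbpl1 in an unlabelled column of its own, and open circles mark an adjusted p over 0.05. Pappa (3.84 and 4.80) and Prss23 (3.13 and 3.58) stand highest, and Stc2 (-2.51 at 48 h) and Irs2 (-2.0 at 48 h) lowest.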

How the data were processed

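RNA-seq counts of 9 libraries were used. The deposited counts give, per Ensembl gene, the reads that the authors counted there, unnormalized, and the submitters' processing notes name fastp, HISAT2, featureCounts and GRCm38 without versions. The annotation release and strand setting are not given in the sources used here. Of the 46078 identifiers, 45229 were found in GENCODE M21, and the others held up to 0.121% of a library's counts. Groups came from the sample titles. Each comparison used its 6 libraries, filterByExpr, TMM and edgeR 4.0.16 (R 4.3.3) with its quasi-likelihood test, two-sided, with Benjamini-Hochberg adjustment over all genes tested and a threshold of 0.05. CPM are TMM-normalized, log2 CPM for likeness used a prior count of 2, and FPKM were computed as CPM per kilobase of the union of exons. The floor was 3 counts: a gene at or under it in every library of a group was called at the floor. The edgeR and DESeq2 fits were tried on simulated counts that had the same spread between replicates for every gene. The simulation did not include the GC pattern of the 0 h libraries, so it does not cover that pattern.

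The 8 genes and all lists were chosen with earlier results of these data known. Named in the text are the 8 genes, pathway genes called in 1 comparison or more whose mean reached 10 CPM in any group, the 3 genes most like each of the 8, and markers as whole lists with their most abundant or defining genes. Other genes are named for their lack of counts or of a call (Ins1, Ins2, Igfbp1, Igfals, Igf2r, Insrr, Irs1 and Pik3r1) or for entering a later test (Pappa2), and these were picked after their values were seen. The alternatives were DESeq2 1.42.0, edgeR with DESeq2's size factors or with library size alone, with no filter or with a filter of at least 10 counts in every library, with 1 fit for all 9 libraries, with a replicate block, and with offsets for GC content and length (splines with 5 and 4 degrees of freedom), FPKM by the longest transcript, and each library left out in turn. Shared sequence was measured with BLAST 2.17.0, and plots were made in Python 3.11.15 with matplotlib 3.10.9. Promoter sequences are those of RefSeq for GRCm38.p6, where all 8 genes had an entry.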

Additional observations from a re-analysis of the deposited data

How the results depend on the processing

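Of the repeat values of the 8 genes, 297 kept direction and side of the threshold, 17 lost a call, 11 gained one and 9 changed sign. The cause of these changes was not tested. The calls over all genes with 1 library left out were 2607 to 6023 (24 h against 0 h), 3471 to 7116 (48 h against 0 h) and 1857 to 4356 (48 h against 24 h), and 1043 in the last with all 9 libraries in 1 fit. The 8 genes gave 3 to 5 calls in the first comparison with 1 library left out, and 1 call in the last with all 9 libraries in 1 fit.

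At 24 h against 0 h, Igf1 passed with all 9 libraries in 1 fit (1.33) and with GC and length offsets (1.40), and ranged from 1.03 to 2.03 with 1 library left out, Igfbp2 from 0.16 to 0.69, Igfbp4 from -0.20 to 0.11 and Igfbp5 from -0.84 to -0.44. Igfbp4 turned to 0.05 with library size alone and to 0.01 with GC and length offsets. At 48 h against 0 h, Igf1 ranged from 1.32 to 2.32, Igfbp2 from -0.46 to 0.08 without single libraries, and Igfbp4 was 0.05 with GC and length offsets. Between 24 h and 48 h, GC and length offsets gave -0.03 for Igf1, 0.04 for Igfbp4 and 0.01 for Igfbp6. There Igf1r passed with DESeq2 (0.29), its size factors (0.29), no filter (0.27) and at least 10 counts in every library (0.29), and ranged from 0.22 to 0.37 with 1 library left out. Igfbp2 (-0.60), Igfbp3 (0.26) and Igfbp7 (0.48) lost their call with all 9 libraries in 1 fit, and Igfbp3 also without a filter (0.25) and with 1 library left out (0.20 to 0.30), while Igfbp6 ranged from -0.33 to 0.02.

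For samples with the same replicate number in 2 groups, the correlations of their deviations from the group means were -0.28 to 0.195, and not every sample was most like its own number. The sample titles do not say whether samples with the same number were cultured together, and these correlations cannot settle it. With the replicate block, calls over all genes were 3007 and 4013 in the comparisons with 0 h, Igfbp5 passed at 24 h (-0.70), and Igf1 at 48 h against 0 h (1.74) and Igfbp3 between 24 h and 48 h (0.25) did not.

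Among the pathway genes, Pik3cb at 24 h turned to 0.07 with library size alone and 0.0 with at least 10 counts in every library. With 1 library left out it ranged from -0.13 to 0.17, and Akt2 from -0.27 to 0.05. Between 24 h and 48 h, GC and length offsets turned Pik3r3 to -0.01 and Akt1 to 0.09. With the longest transcript as length, FPKM were 0.218 and 0.266 for Igf1 at 24 h and 48 h, 17.4, 10.2 and 12.2 for Igf1r, 91.8, 118 and 76.7 for Igfbp2, 9.93, 18.8 and 22.3 for Igfbp3, and 12.4 and 11.4 for Igfbp4 at 24 h and 48 h, which put Igf1r above Igfbp4 at 48 h. Igf1 was not tested against 0 h where 10 counts were required in every library. With 3 libraries a group and 6 to 40 counts per library, the level of Igf1 is the least precise.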
